A study of Caenorhabditis elegans with 2 samples.

Results

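Chromosome V of Caenorhabditis elegans carried 290 of the 2177 reproducible binding sites (peaks) mapped for PHA-4 in embryos. The members are all peaks of the thresholded set that lie on chromosome V in the ce11 build, with no further selection. The chromosome was singled out because its count of peaks was low for its length, so that low count is described here and not tested. PHA-4 was mapped by chromatin immunoprecipitation and sequencing (ChIP-seq), in which DNA bound by the protein is recovered and its enrichment over control reads is read as peaks. Whole embryos were used, of mixed stages and mixed sex. They were of strain OP37, whose genotype is unc-119(ed3) III; wgIs37, where wgIs37 is an inserted array supplying PHA-4 fused to eGFP. The label for the antibody gives pha-4, but the description of the samples gives the eGFP fusion as target. There were 2 biological replicates in 1 group, and no control group was analysed here. Whole embryos mix all cell types, so a peak can come from many cells bound weakly or few cells bound strongly, and these cannot be told apart.

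PHA-4 is a FoxA-family factor, a class of DNA-binding proteins with a winged-helix domain, and it is required for cells of the embryo to form the pharynx, the feeding organ of the worm. It is also active in the gut and, in adults, in the response to diet. Chromosomes of this species have gene-dense centres and arms with more recombination, more repeats and more members of recently expanded gene families. Chromosome V is rich in such families, chemoreceptor genes above all.

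To show summits with and without the words searched below, 9 windows of 81 bases are given here. They were picked by hand as examples and stand for no count: strong promoter peaks, peaks outside promoters, 2 family genes, and summits in whose printed window none of the words occurred. The windows are centred on the summit, the base of highest enrichment, and are read 5′ to 3′ on the plus strand of the RefSeq sequence of WBcel235, the assembly also called ce11. Capitals mark TGTTTAC or TGTTTGC (the form bound by FoxA factors), GAGAGA, or ACGCAGA, on either strand.
C06B8.7, chrV:15497866-15497946: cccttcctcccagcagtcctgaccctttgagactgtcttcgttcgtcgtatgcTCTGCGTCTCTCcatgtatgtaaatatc
sec-61.G, chrV:10897333-10897413: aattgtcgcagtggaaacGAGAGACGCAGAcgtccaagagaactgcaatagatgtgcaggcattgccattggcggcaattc
pha-4 upstream, chrV:20749191-20749271: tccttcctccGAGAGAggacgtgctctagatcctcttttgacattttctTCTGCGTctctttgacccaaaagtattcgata
egl-9 upstream, chrV:10466743-10466823: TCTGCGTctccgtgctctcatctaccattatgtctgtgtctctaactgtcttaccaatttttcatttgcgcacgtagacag
pxn-1 intron, chrV:8500509-8500589: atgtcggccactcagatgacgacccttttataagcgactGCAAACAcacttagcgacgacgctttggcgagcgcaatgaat
nhr-182, chrV:2259937-2260017: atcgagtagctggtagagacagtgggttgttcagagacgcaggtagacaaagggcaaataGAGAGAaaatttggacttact
srh-16, chrV:12291770-12291850: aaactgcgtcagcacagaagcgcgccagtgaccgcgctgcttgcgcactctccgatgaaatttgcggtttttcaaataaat
hsp-90, chrV:14685751-14685831: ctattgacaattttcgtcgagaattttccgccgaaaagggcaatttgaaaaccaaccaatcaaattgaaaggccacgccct
pha-4 internal 5′ end, chrV:20756764-20756844: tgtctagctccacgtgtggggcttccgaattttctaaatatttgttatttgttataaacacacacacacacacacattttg
GAGAGA or ACGCAGA stood in 5 of the 9 windows, among them C06B8.7 and sec-61.G, the strongest promoter peaks on the chromosome. The FoxA word was seen in the window in the pxn-1 intron. None of the words occurred in the windows of srh-16, hsp-90 and the internal start of pha-4.

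Chromosome V held fewer peaks than its length or its genes would give at the rate of the other chromosomes. It made up 20.9% of the nuclear genome and 25% of protein-coding genes, against 13.3% of peaks. That is 13.9 peaks per Mb on chromosome V and 23.8 per Mb on the other 5 chromosomes together. Per 100 protein-coding genes there were 5.81 peaks on chromosome V and 12.6 elsewhere. Of the other chromosomes, IV was nearest with 18.9 peaks per Mb, and I, II, III and X had 22.9 to 27.0. In the replicate lists, from which the set was made and which are thus no separate evidence, 306 of the 2177 strongest entries (14.1%) in replicate 1 and 290 (13.3%) in replicate 2 were on chromosome V.

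Signals on chromosome V covered most of the range seen elsewhere. The signal, the enrichment over control reads as the peak caller gave it, ran from 36.02 to 276 with a median of 52.6, against 35.9 to 348 with a median of 54.8 on the other chromosomes. The quartiles were 42.3 and 73.8 on chromosome V and 43.7 and 75.1 elsewhere. Among the 100 strongest peaks of all, 11 lay on chromosome V, which is 3.79% of its peaks, against 4.72% of the peaks of the other chromosomes.

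The share of chromosome V by strength of entry is a description, since the chromosome was chosen for its low share of the thresholded set. The pooled list holds 21931 entries called on both replicates together, of which 9.93% are in the thresholded set. That proportion was 8.17% for entries on chromosome V and 10.3% for those elsewhere. In successive blocks of 2177 entries by falling signal, chromosome V held 13.3% of the leading block and 14.4 to 18.5% of the 9 that followed. In the replicate lists, from which the set was made, the leading block also had the lowest share. Later blocks were at 15.4 to 19.4% in replicate 1 and 16 to 18.5% in replicate 2. All blocks of all lists were below the 20.9% that length gives. The intervals of some replicate 1 blocks reached above it, as at 19.4% (17.7 to 21.1).

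**Figure D1:**
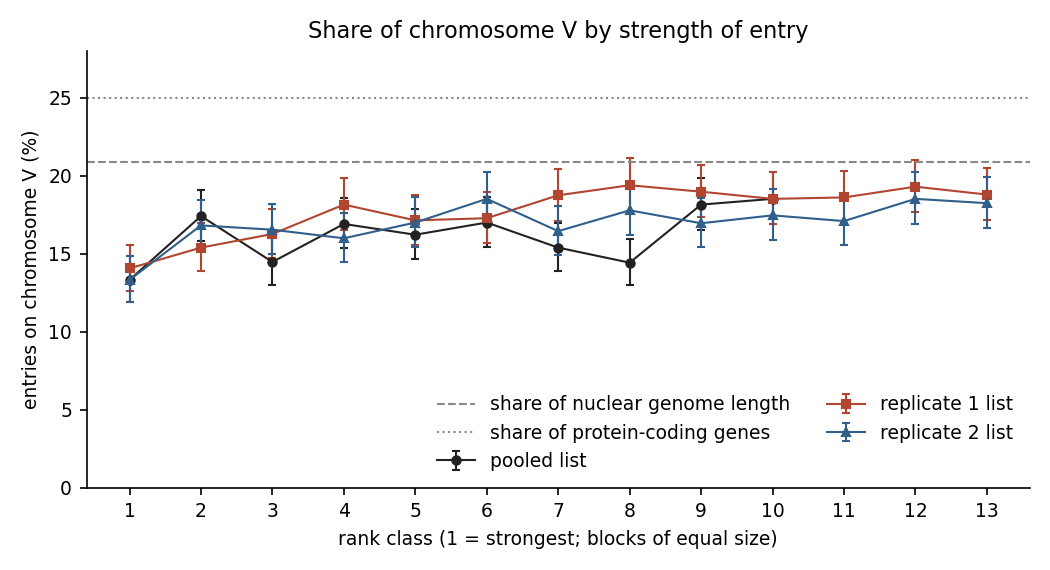
Percent of entries on chromosome V (vertical axis) in successive blocks of 2177 entries by falling signal (horizontal axis), for the pooled list and each replicate list; bars are exact binomial 95% intervals, and the horizontal lines mark the share of genome length (20.9%) and of protein-coding genes (25%). Every point lies below both lines, though the bars of some replicate 1 blocks cross the line for length. The leading block of each list is the lowest of that list. That of the pooled list is the thresholded set, for whose low share the chromosome was chosen.

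Along the chromosome the peaks crowded into the centre. With each arm taken as the outer 25% of the chromosome at its end, a simple fraction and not a mapped recombination boundary, the arms held 85 peaks (29.3%, exact binomial 95% interval 24.1 to 34.9, for counting error only) and the centre 205. On the other chromosomes the arms held 43.4% (41.2 to 45.7), from 39.7% on II to 48.9% on X. The density was 8.12 peaks per Mb in the arms of chromosome V, against 20.6 in the arms of the others, where it ran from 16 on IV to 25.3 on X. In the centre it was 19.6 per Mb on chromosome V and 26.9 on the others, from 21.8 on IV to 30.9 on III. The left arm of chromosome V held 39 peaks (13.4%) and the right arm 46 (15.9%), of which 8 lay within 25 kb of pha-4. By share the left arm of II was level with them, at 13.7% of the peaks of II. Its density was 12.6 peaks per Mb, against 7.46 and 8.79 in the left and right arms of chromosome V. Median signal was 51.9 in the arms of chromosome V and 52.6 in its centre.

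Weaker entries were spread more evenly than the peaks. Of pooled entries below the threshold, 40.7% on chromosome V and 45.3% elsewhere lay in arms. The proportion of pooled entries in the thresholded set was 6.02% in the arms of chromosome V and 9.58% in its centre, against 9.88% in the arms of the other chromosomes and 10.6% in their centres.

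**Figure D2:**
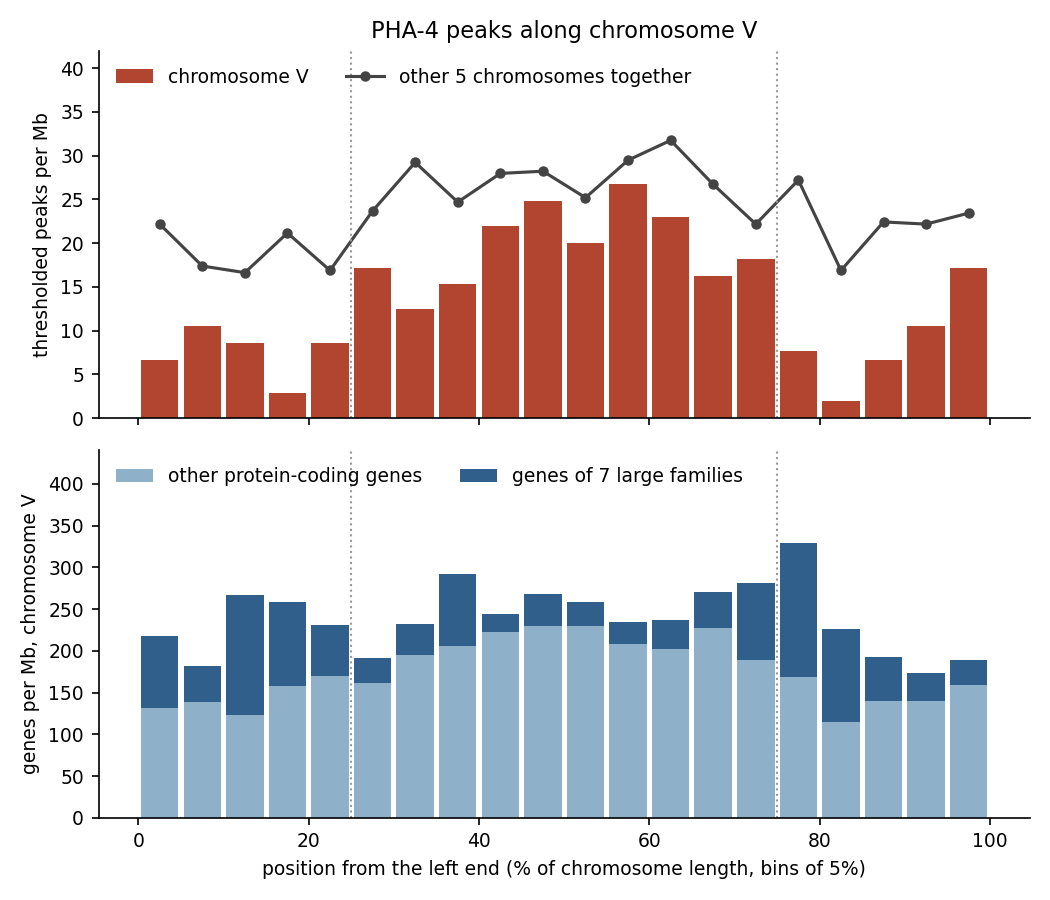
Upper panel: peaks per Mb in bins of 5% of chromosome length from the left end, for chromosome V (bars) and the other 5 chromosomes together (line and points); lower panel: protein-coding genes per Mb on chromosome V, split into genes of 7 large families and all others, with dotted lines at the arm boundaries used. The bars lie under the line in all bins, the lowest bars are in the arms, and the family genes reach their highest density at the start of the right arm.

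In bins of 1 Mb, the richest stretches were 9 to 10 Mb and 12 to 13 Mb, with 26 peaks each, and 11 to 12 Mb with 23. Their strongest peaks were at his-37, a histone gene (signal 124), at dpy-30, a subunit of histone methyltransferase complexes (97.9), and at snr-4, which encodes a core protein of spliceosomal particles (110). The poorest were 3 to 4 Mb with 3 peaks, 17 to 18 Mb with 4 and 18 to 19 Mb with 5. There the strongest peaks were at chk-1, a checkpoint kinase gene (39.0), Y59A8B.24 (94.0) and Y39B6A.43 (184). The last stretch, from 20 Mb to the end, held 18 peaks, or 10 without those near pha-4.

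The longest stretch between neighbouring peaks on chromosome V was 892 kb, from a peak at efl-1 to a peak at tcc-1 (chrV:16965843-17858108). It contained 198 protein-coding genes, 81 of them chemoreceptors, and 15 ribosomal RNA genes. The pooled list had 57 entries in it, the highest with a signal of 23.98, so the stretch was not without entries. The next 2 stretches adjoined each other in the left arm, at 508 kb between Y73C8B.2 and lin-40 and 501 kb between Y45G12B.2 and Y73C8B.2. In the 508 kb stretch 39 of 137 genes were chemoreceptors and the highest pooled entry was 32.9, close under the threshold. In the 501 kb stretch 84 of 142 were, and the highest was 16.2. On the whole chromosome 890 of 4994 genes were chemoreceptors. The longest stretch on any other chromosome was 532 kb, on II.

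Fewer genes on chromosome V had a peak at their promoter, and the difference from the other chromosomes was widest in the arms. Bound genes are counted from the peaks for whose low number the chromosome was chosen, so the lower share is a description. A gene was counted as bound where a summit fell within 1000 bp before or 200 bp after an annotated 5′ end of the gene. Over all chromosomes 1833 of 19973 protein-coding genes, or 9.18%, were bound. On chromosome V it was 295 of 4994 (5.91%, interval 5.27 to 6.60), against 1538 of 14979 on the other chromosomes (10.3%, 9.79 to 10.8). In the arms it was 87 of 2370 genes on chromosome V (3.67%) and 635 of 6560 elsewhere (9.68%). In the centre it was 208 of 2624 (7.93%) on chromosome V and 903 of 8419 (10.7%) elsewhere.

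The arms of chromosome V were rich in genes of large families, of which few were bound apart from nuclear receptors. Chemoreceptors, nuclear receptors, C-type lectins, F-box genes, BATH and MATH genes, cytochromes P450 and UGT genes made up 859 of 2370 genes (36.2%) in the arms of chromosome V and 673 of 6560 (10.3%) in other arms. Of family genes, 25 of 1316 were bound on chromosome V (1.90%) and 18 of 1039 elsewhere (1.73%), and nuclear receptors supplied 14 of the 25 and 9 of the 18. Some of the 25 shared a peak with another family gene, such as fbxa-137 with nhr-59, so they stand for fewer peaks. With the families left out, 270 of 3678 genes were bound on chromosome V (7.34%, 6.52 to 8.23) and 1520 of 13940 elsewhere (10.9%).

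The remaining gap was wider in the arms than in the centre. Outside the families, 73 of 1511 arm genes were bound on chromosome V (4.83%, 3.81 to 6.04) and 629 of 5887 elsewhere (10.7%, 9.91 to 11.5). With both arms pooled, the lowest other chromosome was II with 8.72% of such arm genes, and the highest was III with 13.8%. Arm by arm, the left arm of chromosome V had 40 of 754 (5.31%) and its right arm 33 of 757 (4.36%). The left arm of II was level with them at 38 of 726 (5.23%, 3.73 to 7.11), and 25.6% of its genes were of the families. The other arms ran from 8.84% (right arm of IV) to 16.6% (right arm of III), so a low share was not found on chromosome V alone. In the centre it was 197 of 2167 (9.09%, 7.91 to 10.4) on chromosome V and 891 of 8053 (11.1%) elsewhere, where X had 9.52% and IV 9.64%. Taken from the 2177 strongest entries of replicate 1, the arm values were 5.10% on chromosome V and 11.3% elsewhere, and from those of replicate 2 they were 3.51% and 9.21%. Among genes outside the families with any pooled entry in the promoter window, 73 of 392 arm genes were bound on chromosome V (18.6%, 14.9 to 22.8) and 629 of 2331 elsewhere (27.0%, 25.2 to 28.8).

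**Figure D3:**
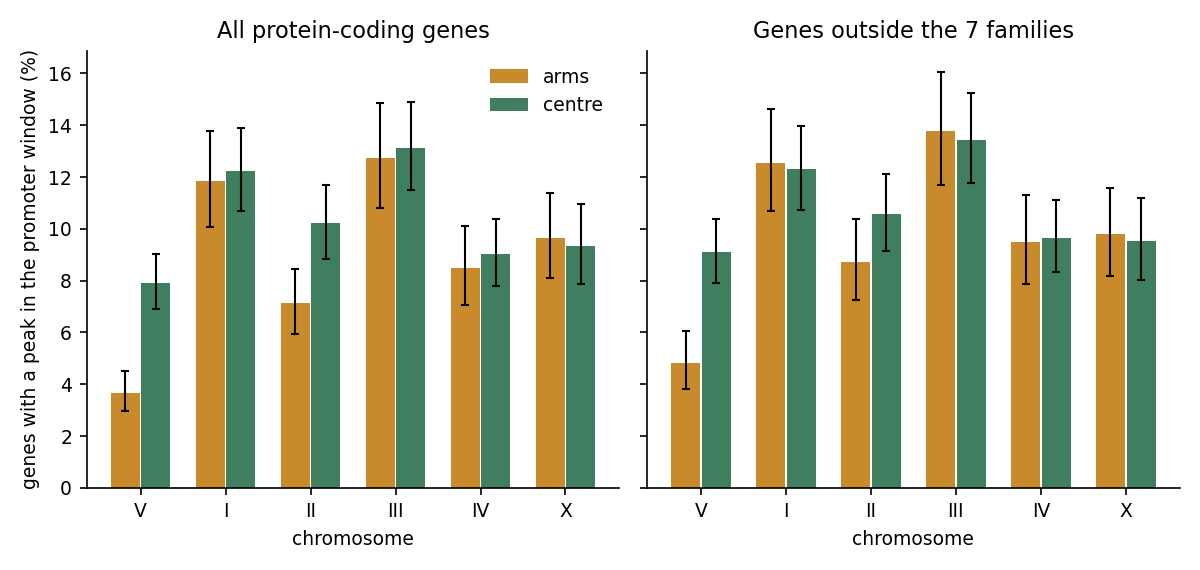
Percent of protein-coding genes with a peak in the promoter window (vertical axis) in the arms and centre of each chromosome, for all genes (left) and for genes outside 7 large families (right); bars are shares and lines exact binomial 95% intervals for counting error. Outside the families the arms of chromosome V stand at 4.83%, below both arms together of each other chromosome (8.72 to 13.8%), though the left arm of II alone is at 5.23%, while its centre (9.09%) is close to the centres of X (9.52%) and IV (9.64%).

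Summits on chromosome V lay mostly at promoters. Of 290 summits, 208 were in a promoter window (71.7%, interval 66.2 to 76.8), 46 were intergenic, 34 in introns and 2 in untranslated regions, at Y50E8A.5 (signal 52.6) and Y38A10A.11 (42.5). None of the 290 lay in coding sequence, for which the upper limit is 1.26%, against 11 of 1887 elsewhere, and chromosomes I and IV had none either. The promoter share on the other chromosomes was 61.2% (59.0 to 63.4). It was 64.2% (61.6 to 66.7) on I to IV together and 52.0% on X. Of single chromosomes, I came nearest with 66.2% (61.2 to 71.0), an interval that overlaps that of chromosome V. Chromosome V had 239 protein-coding genes per Mb, against 189 elsewhere, and the part of gene density in the promoter share was not tested. Summits lay a median of 270.5 bp from the closest 5′ end on chromosome V, 350 bp on I to IV together and 743 bp on X. Below the threshold, 37.7% of pooled entries on chromosome V and 32.4% elsewhere were in promoter windows.

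**Figure D4:**
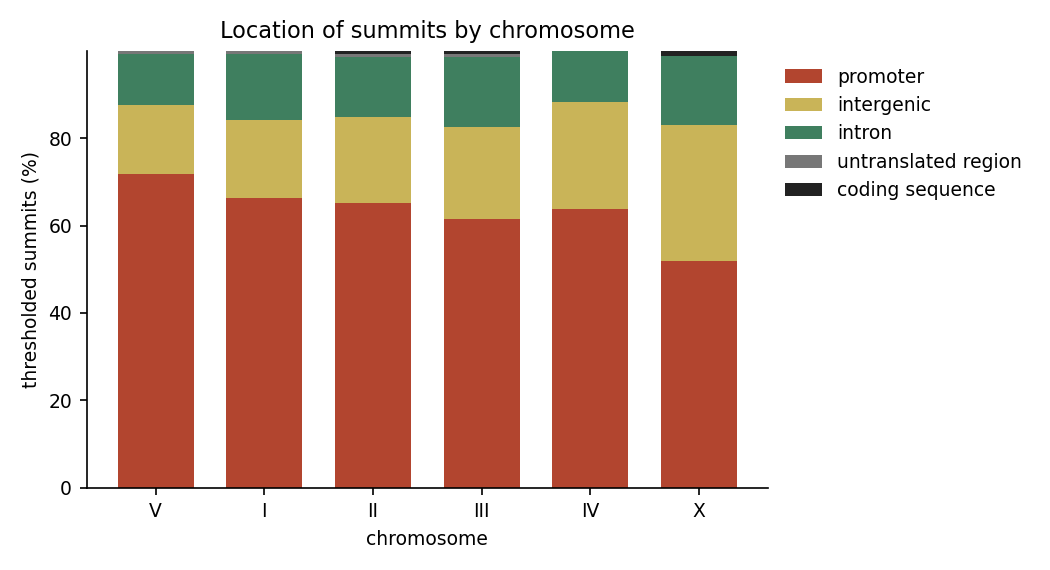
Percent of summits (vertical axis) in promoter windows, intergenic sequence, introns, untranslated regions and coding sequence on each chromosome (horizontal axis). Chromosome V has 71.7% in promoter windows, against 61.6% (III) to 66.2% (I) on I to IV and 52.0% on X. Chromosomes V, I and IV have no segment for coding sequence.

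Some intron summits on chromosome V lay beside small nucleolar RNA (snoRNA) genes, whose products guide chemical changes of ribosomal RNA and which in this species commonly sit in introns. A snoRNA gene was within 300 bp for 9 of 34 intron summits (26.5%, interval 12.9 to 44.4), against 17 of 276 elsewhere (6.16%, 3.63 to 9.68). All 17 were on I to IV, where the share was 17 of 204 (8.33%, 4.93 to 13.0), an interval that overlaps that of chromosome V, and X had 0 of 72. Of single chromosomes, II came nearest with 6 of 48 (12.5%, 4.73 to 25.2). Only intron summits were counted, and no share over all summits was taken. Some promoter and intergenic summits of chromosome V also had a snoRNA gene within 300 bp, such as those at F09G2.2 and str-56. The host genes by signal were Y43F8C.7 (121), pxn-1, which encodes a peroxidasin of the extracellular matrix (115.4), frm-7 (90.7), cutl-18 (86.8), unc-41 (71.8), unc-70, the beta-spectrin gene (63.2), W08G11.3 (53.6), C08D8.1 (49.6) and rol-3 (48.8). A transfer RNA gene was within that distance for 3 intron summits on chromosome V and 25 elsewhere. Of intergenic summits, 17 of 46 on chromosome V and 175 of 437 elsewhere had a non-coding gene within 300 bp.

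The strongest peak on chromosome V had a signal of 276 and lay 828 bp upstream of C06B8.7 (chrV:15497815-15498039). It had 115.1 in replicate 1 and 162 in replicate 2, where signals are each list's own and are not scaled to each other. The third in order, at 199, lay 230 bp upstream of sec-61.G, which encodes a subunit of the channel that moves new proteins into the endoplasmic reticulum, and also in the window of F32D8.13. It had 98.01 in replicate 1 and 105 in replicate 2. Both peaks were thus among the 4 strongest chromosome V peaks in each replicate.

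The other peaks among the 25 strongest are given by what their genes do, with no count of such genes set against a background. Genes for protein synthesis and folding were eef-1G, an elongation factor subunit (150.3, in a window shared with ctf-4), hsp-90, the cytosolic chaperone (149, shared with C47E8.4), crt-1, calreticulin of the endoplasmic reticulum (108.0), and the J-domain gene dnj-22 (106, shared with natc-1, part of an acetyltransferase of nascent proteins). The summit at hsp-90 lay inside the gene, 369 bp before an internal 5′ end of it and 306 bp upstream of C47E8.4. The cyclophilin gene cyn-7 shared a peak with bath-36 (109). RNA-processing genes were plrg-1, whose product associates with the spliceosome (120.0), and snr-4. Peaks farther from a protein-coding 5′ end were at egl-9, which encodes the oxygen-sensing hydroxylase of the hypoxia factor (1734 bp upstream, 115.1), lmd-3 (1031 bp upstream, 107.9), C50B8.6 (2876 bp upstream, 116) and Y17D7C.2 (3795 bp upstream, 140.1). Annotated non-coding RNA genes lay within 300 bp of the summits at egl-9 and C50B8.6, and a pseudogene within 300 bp of that at Y17D7C.2. The rest of the 25 outside the pha-4 neighbourhood were at Y39B6A.43 (184), F53C11.5 (145), F09G2.2 with attf-2 (134), F55A11.6 with F55A11.11 (108.6) and tos-1 (102), beside those at his-37, Y43F8C.7 and pxn-1 given above.

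The gene pha-4 itself (chrV:20753052-20760317, plus strand) lies in the right arm and was nearest to 5 peaks, more than any other gene on the chromosome. The next was wdr-62 with 3, and among the genes with 2 were C06B8.7, C34B4.2 and F44A2.5. Within 25 kb of pha-4 there were 8 peaks, with signals of 234, 190.0, 157, 110.5, 99.2, 88.2, 56.3 and 39.4. They lay 3821 bp upstream of pha-4, 106 bp before an internal 5′ end of it, 1118 bp upstream of dnj-25, 210 bp upstream of pha-4, in an intron 933 bp into it, 2662 bp upstream of dnj-25, 121 bp into ipla-3 and in another pha-4 intron. The array that supplies the tagged protein was made with pha-4 sequence, so extra copies of part of this neighbourhood may be present, and their part in these signals was not tested. Without the 8 peaks, chromosome V had 282 peaks with a median signal of 52.4.

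Replicate 2 had the higher value at most of these peaks. The peak before the internal 5′ end had 40.5 in replicate 1 and 167 in replicate 2, and the peak 210 bp upstream had 14.5 and 93.6. The peak 2662 bp upstream of dnj-25 had 13.9 in replicate 1 and 74.1 in replicate 2. The peak 3821 bp upstream had 107 and 138. Of the 8, 7 had the higher value in replicate 2, as did 195 of all 288 chromosome V peaks with an entry in both lists, which are not scaled to each other. The exception was the peak 1118 bp upstream of dnj-25, with 77.5 in replicate 1 and 63.3 in replicate 2.

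The set was made by agreement between the replicates, so their overlap with it is a description. Of the long replicate lists, an entry of some strength overlapped 289 of 290 chromosome V peaks in each. Counting the 2177 strongest entries of each, 177 peaks (61.03%, interval 55.2 to 66.7) were strong in both, against 64.5% elsewhere, 58 in replicate 1 alone, 52 in replicate 2 alone and 3 in neither. Across the 288 chromosome V peaks with an entry in both, the rank correlation of signals was 0.298, against 0.364 across 1865 peaks elsewhere. Chromosome II alone had 0.284, so a low value was not found on chromosome V alone. The correlation is a description, since peaks of 1 library share its depth and the set was chosen on the pooled signal. The median of the log2 ratio of replicate 2 to replicate 1 was 0.30 with an SD of 0.85 on chromosome V and 0.33 with an SD of 0.78 elsewhere.

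The peaks that changed place most between replicates in favour of replicate 1 were at pqn-51 with K11D12.14 (37.96 in replicate 1 and 8.06 in replicate 2), swan-1 (46.2 and 20.6), picd-1 with the ribosomal gene rps-27 (36.4 and 16.4), a rol-3 intron (34 and 12.4) and pus-1, a pseudouridine synthase gene (36.9 and 17.2). In favour of replicate 2 they were at F57B1.6 (no entry in replicate 1 and 53.1 in replicate 2), inx-11, a gap-junction gene (8.85 and 45.3), unc-76 (18.2 and 65.7), and the peaks near pha-4 and dnj-25 given above. The pooled signals of these 10 peaks ran from 48.6 to 110.5.

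**Figure D5:**
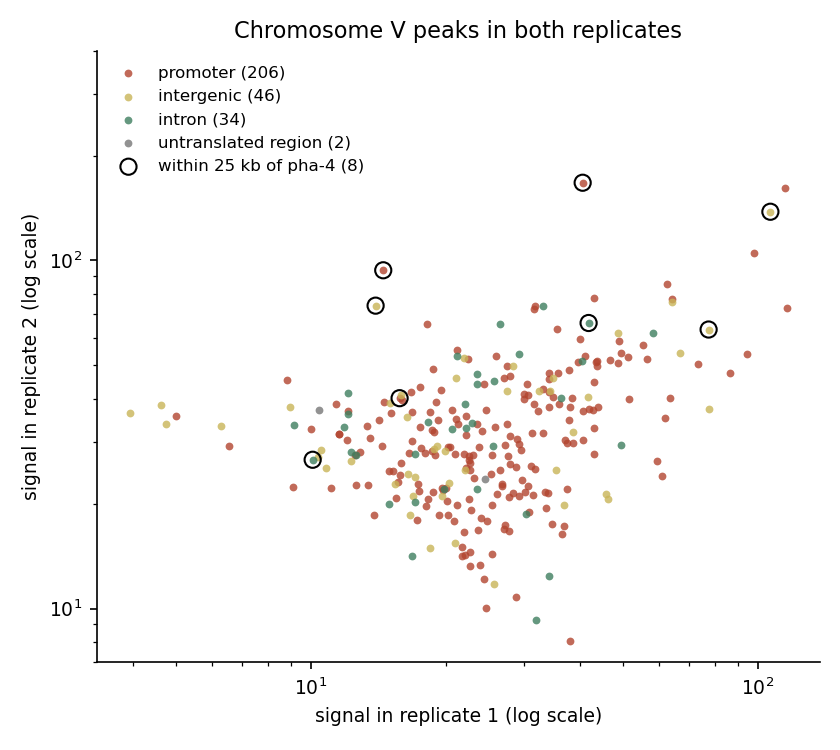
Signal in replicate 1 (horizontal, log scale) against signal in replicate 2 (vertical, log scale) for the 288 chromosome V peaks with an entry in both, coloured by location; circles mark the 8 peaks within 25 kb of pha-4. Of the circled peaks, 7 have the higher value in replicate 2.

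Peaks at the threshold were ordinary promoter, intergenic and intron peaks. The weakest 3 inside it were 110 bp upstream of his-5 (36.30), 4002 bp upstream of unc-70 (36.04) and in an intron at noca-1 (36.02). The strongest 3 entries outside it were in an intron of saeg-1 (35.84), 66 bp upstream of nhr-206 (35.74) and 975 bp upstream of F07C3.9 (35.69). So nhr-206, a nuclear receptor gene, counts as not bound by a margin of under 1 unit of signal.

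Few chemoreceptor genes were bound, and nuclear receptor genes were bound at like shares on chromosome V and elsewhere. Chemoreceptors, the sensory receptors of worm neurons, had 6 of 890 genes bound on chromosome V (0.674%) and 3 of 420 elsewhere, set against 5.91% of all genes on chromosome V and 10.3% elsewhere. The 6 were srh-16 (73.9), srr-10 (59.0), str-12 (52.2), srh-89 (51.4), srd-4 (40.4) and str-60 (39.2), while srab-1 and srab-10 were among those without a peak. Nuclear receptors, a class of transcription factors, had 14 of 167 bound on chromosome V (8.38%) and 9 of 102 elsewhere (8.82%). On chromosome V 111 of the 167 lie in the arms. The 8.38% covers arms and centre together, so it is set against the 5.91% of all genes there, not against the arms alone. The strongest were nhr-56 (99.6), nhr-47 (88.3), nhr-182 (74.2), nhr-256 (67.9), nhr-237 (60.9) and nhr-44 (54.7), and nhr-101 and nhr-102 had none.

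The counts of the other families and of collagens are read against the same 5.91% and 10.3% of all genes. Of F-box genes 3 of 87 were bound on chromosome V, fbxa-90 (58.7), fbxa-153 (52.2) and fbxa-137 (49.9), against 2 of 235 elsewhere, and fbxa-100 and fbxa-102 had no peak. Of the BATH and MATH genes, 2 of 3 were bound, bath-36 (109) and math-33 (55.8), and bath-39 was not, against 3 of 70 elsewhere. Both peaks also lay in another gene's window, cyn-7 for bath-36 and erfa-3 for math-33. None of 86 C-type lectin genes (clec-1 and clec-203 among them), 41 cytochrome P450 genes (cyp-14A5, cyp-29A2), 42 UGT genes (ugt-1, ugt-10) and 31 collagen genes (col-10, col-12) was bound on chromosome V. Elsewhere 1 of 154, 0 of 33, 0 of 25 and 4 of 125 were.

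Most ribosomal protein genes were bound, but few are on chromosome V. Over all genes the shares bound were 5.91% on chromosome V and 10.3% elsewhere. On chromosome V 5 of 8 were bound, by 4 peaks, against 59 of 73 elsewhere. They were rpl-38 (94.3), rpl-39 and rps-30, which share a peak (90.4), rpl-28 (76.9) and rps-27 (48.6). Of those not bound, rpl-2 had a pooled entry of 35.3, close under the threshold, rpl-11.1 of 25.7 and rps-16 of 9.65. Of mitochondrial ribosomal protein genes, 1 of 10 was bound on chromosome V, mrpl-49 (76.9), and 12 of 60 elsewhere, and mrpl-39 and mrpl-4 had no peak; with 10 genes, 1 bound is near the share of all genes. Histone genes had 7 of 27 records bound by 4 peaks on chromosome V, against 10 of 45 elsewhere. Beside his-37 these were his-3 with his-4 (94.5), his-35 with his-41 (46.1) and his-5 with his-6 (36.3), and his-1 and his-17 had none. Histone copies are nearly identical, so reads could be split among them and these counts are uncertain.

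Few genes of the pharynx and gut lists are on chromosome V. Counts can be read only against the share of all genes bound, 5.91% on chromosome V and 10.3% elsewhere. Of 5 pharynx regulators there, pha-4 was bound (190.0). The homeobox genes ceh-22, ceh-24, ceh-32 and ceh-34 had pooled entries of 26.4, 9.56, 22.5 and 31.5. None of 14 such regulators elsewhere was bound. Of 6 pharyngeal muscle and gland genes none was bound, against 1 of 10 elsewhere. Of these, avr-15, a glutamate-gated channel gene, had a pooled entry of 17.3, the muscle genes myo-5 and tnt-4 had 25.3 and 25.9, the gland gene phat-5 had 10.7, and phat-3 and phat-4 had no entry in the promoter window. The endoderm genes end-1, end-3 and elt-7, GATA factors of the gut lineage, had no pooled entry in the promoter window. Of 12 ceh homeobox genes none was bound, against 2 of 51 elsewhere, and neither was vha-13 or vha-18 of the proton pump genes, against 5 of 18. Of 5 longevity and stress genes, hsp-90 (149, through its internal 5′ end) and the mitochondrial chaperone gene hsp-6 (43.1) were bound, against 8 of 17 elsewhere. The hypoxia factor gene hif-1 had a pooled entry of 15.7, and smk-1 had 25.8. For unc-51, which encodes a kinase of autophagy, the promoter window held no entry, but a thresholded peak with a signal of 62.2 lay 1435 bp upstream of it.

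The words printed in capitals above were frequent at summits of chromosome V and less so next to them. They were chosen with earlier results of these data known, so their counts at summits are a description and not a test. Both strands of the 201 bp around each summit were searched, and for comparison windows of equal length 500 bp to each side and at the promoters of all protein-coding genes. GAGAGA and ACGCAGA can share letters, and either is called a GA-rich word here. TGTTTAC or TGTTTGC occurred in 52 of 290 summit windows on chromosome V (17.9%, interval 13.7 to 22.8), in 6.38% of flanking windows and in 8.71% of promoters there. On the other chromosomes it was in 21% of summit windows, and in 8.72% of promoters of all chromosomes. GAGAGA occurred in 142 windows (49.0%), in 9.31% of flanks and in 14.6% of promoters, against 47.5% of summit windows elsewhere and 16.3% of all promoters. ACGCAGA occurred in 66 (22.8%), in 1.90% of flanks and in 3.40% of promoters, against 20.2% of summit windows elsewhere and 3.46% of all promoters.

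Words of other factors stood on either side of their level in flanks and promoters. TGATAA, a form bound by GATA factors, was in 7.93% of summit windows of chromosome V, under the 15.7% of its flanks and 23.8% of its promoters, against 6.73% of summit windows elsewhere and 22.8% of all promoters. TCACAC, a T-box word, was in 11.7% of summit windows and 7.24% of flanks, against 14.3% of summit windows elsewhere and 8.67% of all promoters. CAAGTG, an NK-2 word, was in 16.2% and 8.97%, against 13.1% of summit windows elsewhere and 8.21% of all promoters. Base composition moved with these counts: G and C made up 43.7% of summit windows on chromosome V and 35.8% of flanks, against 45.2% and 36.1% elsewhere, and its part in them was not tested.

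Counts of the words in arm and centre summits of chromosome V are given as a description, with no test and no like split of the other chromosomes. TGTTTAC or TGTTTGC was in 8 of 85 arm windows (9.41%) and 44 of 205 centre windows (21.5%). ACGCAGA was in 31.8% of arm windows and 19.0% of centre windows, and GAGAGA in 55.3% and 46.3%. By location, GAGAGA was in 32 of 46 intergenic windows (69.6%) and 44.2% of promoter windows. The FoxA word and a GA-rich word occurred together in 26 windows, the FoxA word without the other in 26, a GA-rich word alone in 140, and neither in 98. Median signal was 55.7 where the FoxA word occurred, 52.8 where a GA-rich word did and 50.9 where neither did. The groups with the FoxA word and with a GA-rich word share the 26 windows that hold both. GAGAGA was in 71 windows of the stronger 145 chromosome V peaks and in 71 of the weaker 145. The FoxA word was in 28 and 24 of them, and ACGCAGA in 36 and 30.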

How the data were processed

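Peak lists of 2 biological replicates in 1 group were used. Per the deposited file descriptions, the authors called peaks for either replicate alone and for the pool, against control reads (2 control files for the pooled ce11 list). Comparing those lists by irreproducible discovery rate gave the thresholded set. Aligner, caller and threshold are not stated. The signal deposited for a peak comes from the caller and is not scaled between lists. The deposited −log10 q reached its shared highest value in 189 of the 290 chromosome V peaks and was not used. The replicate lists hold 30000 entries each, with weak entries kept as background. Read depth is unknown.

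Summits were placed on the Ensembl release 115 annotation of ce11 in the order promoter, coding sequence, untranslated region, intron, intergenic. Genes without a symbol go by their sequence name, and some gene records share a symbol. Families and lists were taken by gene-name prefix or by hand. The members, lists and words were chosen with earlier results of these data known. Genes named were pha-4, those at the 25 strongest chromosome V peaks, at the threshold, with the largest rank differences, with most peaks, leading or unbound in each list, and at the richest, poorest and emptiest stretches; the genes at snoRNA introns were named after their values were seen. All samples form 1 group, so no test between groups was possible and shares are given with exact binomial (Clopper-Pearson) 95% intervals, which cover counting only. Overlap meant 1 bp or more. The scripts were checked on simulated data. The tools were Python 3.11.15, numpy 2.4.6, pandas 2.3.3, scipy 1.17.1 and matplotlib 3.10.9. Alternatives were the stronger 1088 peaks, each replicate alone, peaks outside 25 kb of pha-4, the ce10 lists, other arm, promoter and motif windows, the nearest 5′ end only and stricter overlap.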

Additional observations from a re-analysis of the deposited data

How the results depend on the processing

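The share of peaks on chromosome V ranged from 12.1% (132 of the 1088 strongest) to 14.1%, with 13.7% in the ce10 lists. Of 156 alternative values that could move, 87 stayed within the interval of the reported value and 69 did not. The order of chromosome V and the other chromosomes was kept in 73 of 76 comparisons of shares, which reuse the same lists. It turned round for CAAGTG in windows of 50 bp on each side (8.62% on chromosome V and 9.70% elsewhere), for GAGAGA without replicate 1 (44.5% and 46.5%) and for the FoxA word without replicate 2 (20.9% and 20.4%), so no difference in these words is claimed. The ratio of the chromosome V median signal to that of the others (0.96) became 1.01 among the stronger 1088 peaks and was 0.93 to 1.01 with a replicate left out, on both sides of 1.

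Shares of bound genes moved with the definition, and chromosome V stayed lower in each, though all reuse the same lists and are no separate evidence. With 500 bp upstream they were 4.89% on chromosome V and 8.34% elsewhere, with 2000 bp 7.47% and 13.3%, with the nearest 5′ end only 4.10% and 7.52%, with the stronger 1088 peaks 2.74% and 5.63%, and outside the families 7.34% and 10.9%. With a replicate left out they were 5.07 to 6.21% on chromosome V and 9.26 to 10.8% elsewhere. For arm genes outside the families, a split chosen after seeing the data, chromosome V had 6.15% with 2000 bp (13.5% elsewhere), 3.31% with the nearest 5′ end only (7.95%), 2.05% with the stronger 1088 peaks (6.15%) and 3.51 to 5.10% with a replicate left out (9.21 to 11.3%).

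With each arm made as long as the centre, 48.6% of chromosome V peaks and 61.2% of the others lay in arms. The promoter share on chromosome V was 82.1% with 2000 bp upstream, 64.5% with 500 bp and 64.1 to 71.9% with a replicate left out. Overlap with a replicate was 99.7% with all entries of either replicate, and 73.8% for replicate 2 with summits within 50 bp. GAGAGA was in 33.4% of windows of 50 bp on each side. Shares of arms on ce10 were not run, since no chromosome lengths of that build were used here. No paired analysis was possible because all samples form 1 group. The depth of the lists is unknown, and a gene without a peak is not shown to be unbound.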

Other observations

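Genes with a symbol were bound more often than genes known by sequence name only, on chromosome V as elsewhere. Outside the 7 families, 170 of 1544 genes with a symbol were bound on chromosome V (11.0%) and 1061 of 6997 elsewhere (15.2%). Of genes with a sequence name only, 100 of 2134 were bound on chromosome V (4.69%) and 459 of 6943 elsewhere (6.61%). Among genes with a symbol, 38 of 523 were bound in the arms of chromosome V (7.27%) and 132 of 1021 in its centre (12.9%).

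Of the promoter peaks, 84 of 208 on chromosome V (40.4%) lay in the windows of more than 1 gene, against 34.1% on the other chromosomes. The share was 40.02% on I to IV together and 11.3% on X, so chromosome V was level with I to IV.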
